A study of Rattus norvegicus with 33 samples.

Results

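The cecal bacteria of 16 Wistar Kyoto (WKY) rats were compared between the 8 animals with the highest and the 8 with the lowest share of Akkermansia. The 16 WKY rats, 9 females and 7 males, were all the WKY animals among 33 rats in the study, whose other 17 (10 females and 7 males) were spontaneously hypertensive rats (SHR). SHR rats become hypertensive as they grow up, and WKY rats are the usual control strain with normal blood pressure. All animals were 14 to 15 weeks old, and DNA of the cecal contents, the material in the pouch where the small and large intestines meet, was sequenced by shotgun sequencing. No treatment, cage or litter stands in the labels. The 2 sets were chosen by a measured value, the percent of each library's assigned reads named Akkermansia. They are therefore not groups of the study, and the difference in Akkermansia itself is a description without a test.

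Akkermansia muciniphila is a bacterium of the phylum Verrucomicrobia that lives in the mucus layer of the gut and grows on mucin, the glycoprotein of that layer. It cuts sugars and sulfate groups off the mucin chains and ferments them to short-chain fatty acids, on which neighbouring bacteria can feed. A rise of one abundant bacterium lowers the share of every other in sequencing data, because shares add up to a fixed total. Akkermansia reads were therefore taken out of each library first, and every other bacterium was expressed as a percent of the reads that were left.

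The high set held 5 females and 3 males, and the low set 4 females and 4 males. From the top, Akkermansia took 22.7% of assigned reads in WKY female 3, 16.3% in male 1, 12.9% in female 2, 10.7% in male 6, 6.98% in female 5, 6.4% in female 4, 4.53% in male 5 and 1.71% in female 1. The low set ran on from 1.04% in female 9 through 0.721% in female 8, 0.671% in female 6, 0.532% in male 7, 0.480% in male 4, 0.415% in male 3 and 0.151% in male 2 to 0.0685% in female 7. The numbers within a sex only name the rats. The values form a gradient and not separate clusters, and the boundary lies between female 1 and female 9. The high set averaged 10.3 ± 6.85% (mean ± SD, n = 8) and the low set 0.510 ± 0.313% (n = 8). In the 17 SHR rats Akkermansia ranged from 0.0580% to 7.88%, with a median of 0.163%.

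**Figure D1:**
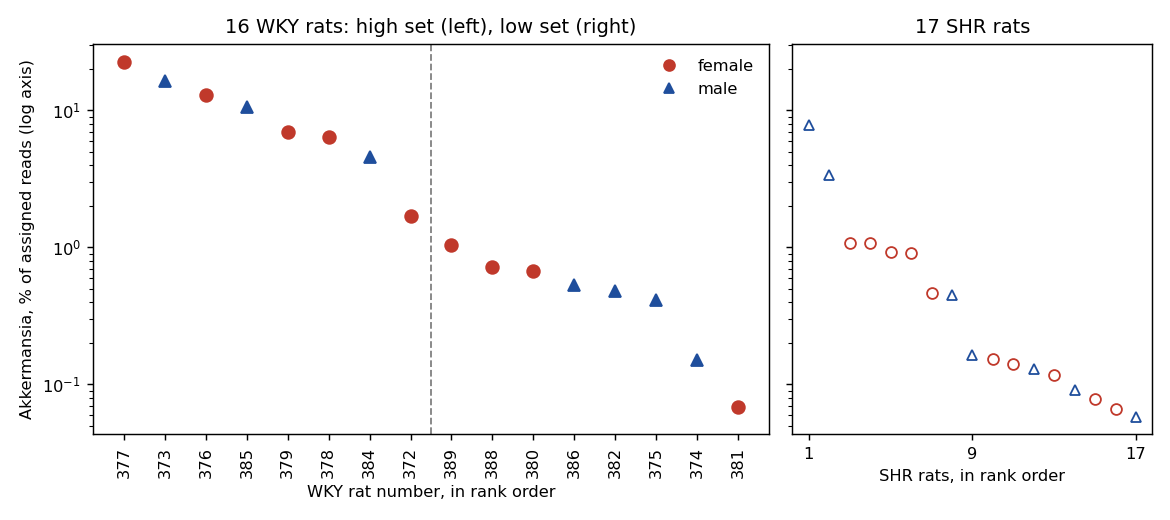
Akkermansia as percent of assigned reads (log axis) in each of the 16 WKY rats, in rank order with the animals' numbers, and in the 17 SHR rats. Circles are females and triangles males, and the dashed line is the boundary between 1.71% and 1.04%. The values fall along a gradient from 22.7% to 0.0685% with both sexes on each side of the boundary.

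The rats of a set tended to carry neighbouring animal numbers. Rats 372, 373, 376, 377, 378, 379, 384 and 385 made up the high set, and rats 374, 375, 380, 381, 382, 386, 388 and 389 the low set. Whether neighbouring numbers shared a cage or litter is not in the labels, so shared housing and the Akkermansia level cannot be told apart, and p-values over rats would be too small where housing was shared. The WKY libraries held 432633 to 886827 assigned reads. Depth on the log2 scale differed by -0.12 between the sets, high minus low (exact permutation test, 2-sided, p = 0.342, 12870 splits, n = 8 and 8). Even the lowest Akkermansia value rested on 463 reads.

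Nearly all of the reads belonged to A. muciniphila, which had 7364 to 182394 reads per library in the high set and 409 to 8036 in the low set. Akkermansia glycaniphila, the other listed species of the genus, first described from a snake, had 15 to 53 reads in the high set and 37 to 63 in the low set. It was thus no more frequent where A. muciniphila was abundant. The 10 other Verrucomicrobia genera together had a median of 583 RPM, reads per 1000000 of the reads left (range 261 to 840), in the high set and 735 (439 to 889) in the low set. Opitutus, a genus first found in soil, had medians of 106 and 107 RPM, and Verrucomicrobium, which gave the phylum its name, 89.3 and 108. The summed ranges of the 2 sets overlapped.

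With Akkermansia removed, no single genus separated the sets. Of 1332 genera tested, 0 (0%) passed limma's test, fitted on log2 RPM with sex as a covariate, at a Benjamini-Hochberg adjusted p under 0.05. At an unadjusted p under 0.05 there were 114 genera (8.56%), 28 higher and 86 lower in the high set, and the median log2 difference over all genera was -0.13. Whatever their p, 429 genera were higher and 903 lower. edgeR called 0 and DESeq2 called 1, Pectinatus. Of 4017 species 0 (0%) passed, with 381 (9.48%) at an unadjusted p under 0.05, 98 higher and 283 lower. edgeR called 0 species and DESeq2 38, of which 26 were higher. DESeq2 gave no adjusted p for 2889 of the 4017 species and 284 of the 1332 genera, so its counts rest on fewer features. No genus had sets without overlap (0%), and among species only Maribacter sp. MJ134 (0.0249%) did, at 0.00154% to 0.00313% in the high set and 0.00376% to 0.00821% in the low set. Maribacter is a marine genus. In SHR the log2 difference of this species had the opposite sign, 0.66 against -0.96.

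The genera with the lowest p on the higher side were Adlercreutzia, Turicibacter, Bifidobacterium, Eggerthella and Gordonibacter, and none of them passed. Adlercreutzia, which converts the plant isoflavone daidzein to equol, took 0.376% to 1.44% of the reads left in the high set (median 0.877%) and 0.176% to 0.719% in the low set (median 0.294%). All 8 high rats lay above the low median, but the sets overlapped. Its log2 difference was 1.22 ± 0.31 (SE; limma, adjusted p = 0.238), with 1.40 in females and 0.98 in males. Eggerthella and Gordonibacter belong to the same family of gut actinobacteria, known for transforming drugs, bile acids and plant compounds. Eggerthella had medians of 0.138% and 0.0801%, with 8 of 8 high rats above the low median, and Gordonibacter 0.101% and 0.0536%, with 7 of 8. Their adjusted p was 0.404 in both cases (limma). Of 11 tested members of the class Coriobacteriia, which holds all 3, 8 were higher and 3 lower, with a median log2 difference of 0.09 beside -0.13 for all genera, and 3 reached an unadjusted p under 0.05. Olsenella, a lactate former that was the second most abundant member, stood at 0.138 ± 0.0252% and 0.141 ± 0.0485%. The class as a whole summed to 1.36 ± 0.422% of the reads left in the high set and 0.825 ± 0.294% in the low set.

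Turicibacter, a spore-forming inhabitant of the rodent intestine that acts on bile acids and lipids, took 0.680% to 3.46% (median 2.21%) in the high set and 0.545% to 1.92% (median 0.808%) in the low set. Its log2 difference was 1.17 ± 0.34 (limma, adjusted p = 0.262), with 7 of 8 high rats above the low median. Faecalibaculum, a fermenter common in rodents, averaged 0.842 ± 0.622% and 0.395 ± 0.237% (log2 difference 1.13, limma adjusted p = 0.472). Of 7 tested genera of the Erysipelotrichia and Turicibacter, 5 were higher and 2 lower (median 0.18), 2 of them at an unadjusted p under 0.05. Together they made up 3.43 ± 1.04% of the reads left in the high set and 1.83 ± 0.487% in the low set.

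Romboutsia, which ferments simple sugars in the rat ileum, took 2.13% to 20.5% (median 6.81%) in the high set and 1.84% to 10.3% (median 3.69%) in the low set. Its log2 difference was 0.93 ± 0.41 (limma, adjusted p = 0.531). Clostridium averaged 5.08 ± 1.63% and 3.04 ± 0.524% (log2 difference 0.73, limma adjusted p = 0.564). Of the 5 tested genera of Peptostreptococcaceae and Clostridiaceae, 4 were higher, 1 was lower and 3 reached an unadjusted p under 0.05, with a median of 0.57. The exception was Clostridioides, at 0.560 ± 0.109% and 0.898 ± 0.556%. Candidatus Arthromitus, the segmented filamentous bacterium that attaches to the ileal wall and primes T cells, had 0.0217 ± 0.00939% and 0.0138 ± 0.00418% (log2 difference 0.56, limma adjusted p = 0.536). With Candidatus Saccharimonas and Candidatus Nanosynbacter, tiny bacteria that live on other bacteria, all 3 tested genera of that list were higher (median 0.61), 1 at an unadjusted p under 0.05. In Saccharimonas and in Nanosynbacter, however, only 3 high rats lay above the low median and 5 lay below it.

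The lactic acid bacteria were higher as a list of genera, but not through Lactobacillus. Of 21 tested genera 20 were higher and 1 lower (median log2 difference 0.39, beside -0.13 for all genera), 4 at an unadjusted p under 0.05 and none past the adjusted threshold. Limosilactobacillus, the genus of the rodent forestomach dweller L. reuteri, took 1.92% to 15.9% (median 7.24%) in the high set and 1.86% to 5.99% (median 3.10%) in the low set. Its log2 difference was 1.04 ± 0.39 (limma, adjusted p = 0.442). Lactobacillus, the most abundant genus, averaged 11.2 ± 6.08% and 11.8 ± 10.1%, with a log2 difference of 0.07 ± 0.47 that was negative in 13 of 31 alternative settings. The highest values were in the low set, with 29.8% in male 4 and 25.5% in female 9 against 4.31% to 11.6% in its other 6 rats. The lowest were in the high set, with 2.42% in female 4 and 2.55% in female 5.

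**Figure D2:**
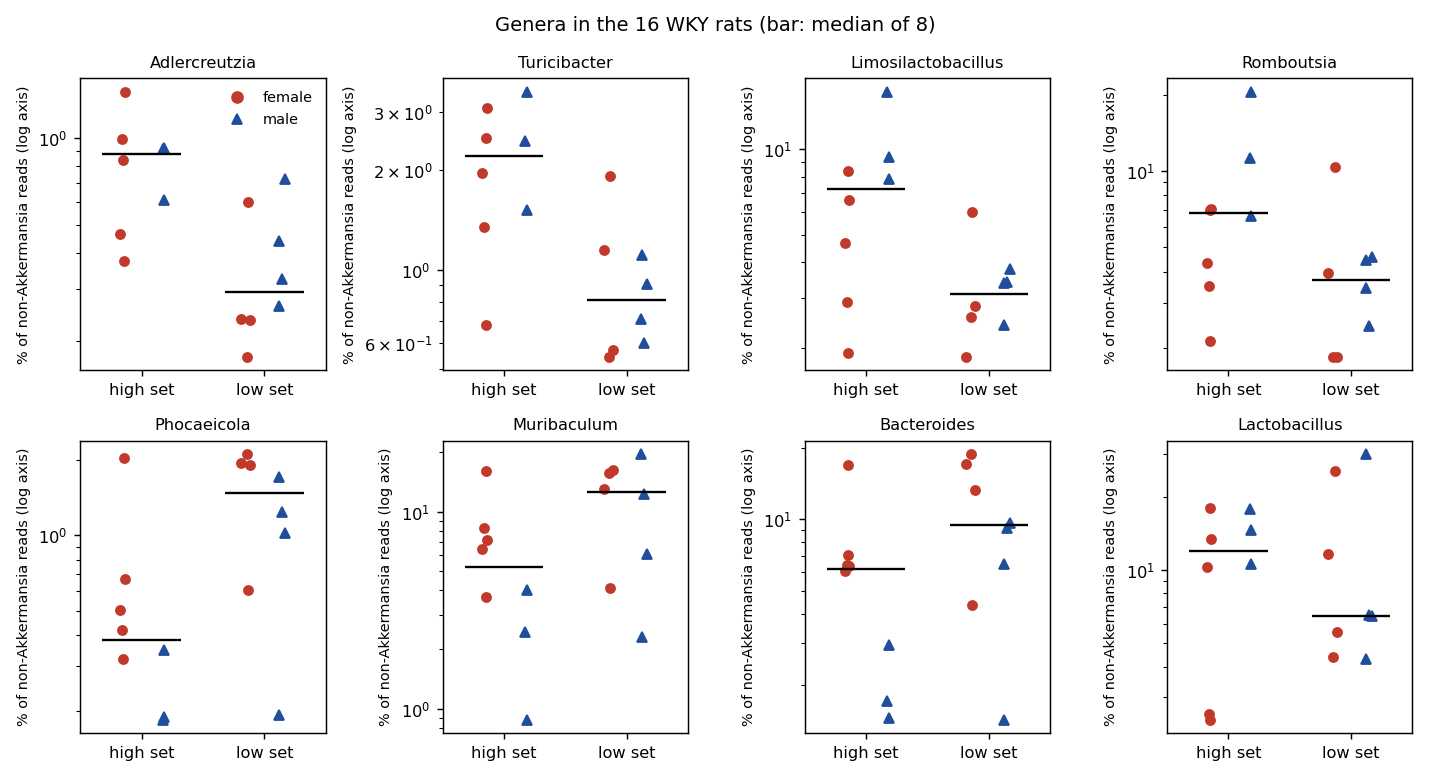
Percent of non-Akkermansia reads (log axis) of 8 genera in the high and low set. Each circle is a female and each triangle a male, and the bar is the median of the 8 rats. Adlercreutzia and Turicibacter have medians of 0.877% and 2.21% in the high set against 0.294% and 0.808%, Phocaeicola has 0.384% against 1.48%, and every genus shown overlaps between the sets.

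On the lower side stood the Bacteroidales, the order of gut bacteria that break down plant and host polysaccharides. Phocaeicola, the genus of the former Bacteroides vulgatus, took 0.184% to 2.04% of the reads left in the high set (median 0.384%) and 0.193% to 2.10% in the low set (median 1.48%). The log2 difference was -1.49 ± 0.39 (limma, adjusted p = 0.253), and 7 of 8 high rats lay below the low median. Muribaculum, a dominant genus of the rodent gut, had medians of 5.25% and 12.6% (log2 difference -1.13 ± 0.44, limma adjusted p = 0.485). Bacteroides had 6.19% and 9.43% (-0.96 ± 0.42, limma adjusted p = 0.531), Duncaniella 1.98% and 2.74%, and Alistipes 1.58% and 2.25%. Odoribacter, which makes short-chain fatty acids, had 0.0310% and 0.0559% (-0.87 ± 0.30, limma adjusted p = 0.409). Of 15 tested genera of the order 14 were lower and 1 higher, with a median of -0.71, and 8 reached an unadjusted p under 0.05 beside 8.56% of all genera. The order summed to 18.7 ± 13.8% in the high set and 30 ± 14.8% in the low set.

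A few rats ran against their set, and among fits without 1 rat only those without such a rat called any genus. The rats are described here because their values opposed the difference between the sets. Larger differences without them, as in Phocaeicola, followed from that choice and are no separate support. WKY female 4, of the high set, had 17% Bacteroides, 16.1% Muribaculum and 2.04% Phocaeicola, values inside the upper range of the low set. In the low set, male 4 had 1.43% Bacteroides and 0.193% Phocaeicola, and female 9, next to the boundary, 4.37% and 0.603%. Without female 4, limma called 4 genera, Adlercreutzia (log2 difference 1.33) and Turicibacter (1.37) higher and Phocaeicola (-1.73) and Curvibacter (-1.64) lower. Without female 9 it called 7, the same 4 genera with Odoribacter, Mucinivorans and Aquaspirillum, all 3 lower. Without male 4 it called 2, Phocaeicola and Curvibacter. Leaving out both rats beside the boundary, female 1 and female 9, gave 5, Adlercreutzia, Turicibacter, Phocaeicola, Odoribacter and Curvibacter.

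Curvibacter, Brucella and Jiangella completed the lower genera with the lowest p, all at traces. Reads named Curvibacter, a freshwater genus, had medians of 0.00478% and 0.0173% (log2 difference -1.41 ± 0.37, limma adjusted p = 0.253). Brucella, a genus of animal pathogens with soil relatives, had 0.00705% and 0.0131%, and all 8 high rats lay below the low median. Jiangella, an actinobacterium of soil, had 0.00750% and 0.0134%, again with 8 of 8 below. In SHR the log2 differences were -0.99 for Curvibacter, 0.05 for Brucella and -0.33 for Jiangella.

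The fermenters of the Firmicutes that make butyrate, the main fuel of the colon lining, stood as a list close to the background of all genera. Of 10 tested butyrate producers 9 were lower and 1 higher, with a median of -0.13, the same as for all genera, and none reached an unadjusted p under 0.05. Lachnoclostridium averaged 1.66 ± 0.571% and 1.82 ± 0.483%, Roseburia 0.875 ± 0.389% and 0.897 ± 0.283%, Flavonifractor 0.769 ± 0.361% and 1.02 ± 0.291%, and Faecalibacterium 0.511 ± 0.168% and 0.835 ± 0.434%. Single members lay further down. In Faecalibacterium (log2 difference -0.54) 8 of 8 high rats were below the low median, and in Flavonifractor (-0.51) 6 of 8. In Lachnoclostridium and in Roseburia it was 5 of 8. Of 8 acetogens and other Lachnospiraceae 7 were lower (median -0.10), led by Blautia at 1.86 ± 0.590% and 2.09 ± 0.704% and Ruminococcus at 0.705 ± 0.325% and 0.917 ± 0.390%. The remaining abundant genera were Prevotella at 0.670 ± 0.464% and 0.951 ± 0.511%, Bacillus at 1.07 ± 0.301% and 0.918 ± 0.136%, Paenibacillus at 0.898 ± 0.250% and 0.934 ± 0.168%, and Streptomyces at 0.657 ± 0.256% and 0.819 ± 0.218%. None of these passed.

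Of 8 sulfate reducers, which make hydrogen sulfide, 7 were lower and 1 higher (median -0.19), with Desulfovibrio at 0.138 ± 0.0511% and 0.158 ± 0.0380%. Of 11 Enterobacterales 8 were lower (median -0.09), with Escherichia at 0.125 ± 0.0626% and 0.0916 ± 0.0551%. Of 5 Campylobacterales 4 were higher (median 0.18), with Campylobacter at 0.223 ± 0.0864% and 0.188 ± 0.0337%. Sutterella, the only tested member of its family, had 0.00959 ± 0.00371% and 0.0149 ± 0.00905%. No member of these lists reached an unadjusted p under 0.05.

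Among species, the lowest p on the higher side belonged to Bifidobacterium choerinum, Clostridium septicum, Clostridium chauvoei, Adlercreutzia sp. 8CFCBH1 and Adlercreutzia equolifaciens, all with an adjusted p of 0.323 (limma). DESeq2 called these 5 and the 5 lower species named next, all among its 38. Clostridium septicum and C. chauvoei are closely related toxin-forming clostridia, and reads of related clostridia can share their names. C. septicum took 0.142% to 0.485% of the species reads left in the high set (median 0.247%) and 0.0855% to 0.177% in the low set (median 0.120%), a log2 difference of 1.12 ± 0.29. C. chauvoei had medians of 0.199% and 0.100% (1.05 ± 0.28). In both, 8 of 8 high rats lay above the low median and only the lowest high rats overlapped with the low set. Adlercreutzia equolifaciens, the named equol former, had 0.499% and 0.170%, also with 8 of 8 above.

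The lower species named were Phocaeicola vulgatus, Curvibacter sp. AEP1-3, Parabacteroides sp. CT06, Bacteroides sp. CBA7301 and Bacteroides sp. HF-5141. P. vulgatus took 0.0679% to 1.23% in the high set (median 0.119%) and 0.0654% to 1.26% in the low set (median 0.927%), a log2 difference of -2.05 ± 0.54 (limma, adjusted p = 0.323). In the high set 7 rats stood at 0.264% or less and female 4 at 1.23%, whereas in the low set male 4 was at 0.0654%, female 9 at 0.353% and the other 6 at 0.610% or more. Without female 4 limma called 3 species, all lower, P. vulgatus (-2.38), Parabacteroides sp. CT06 (-1.47) and Curvibacter sp. AEP1-3 (-1.66). Without male 4 it called 2, P. vulgatus (-2.40) and Bacteroides sp. A1C1 (-1.67), and without female 9 it called 1, Parabacteroides sp. CT06 (-1.54). Leaving out any other single rat gave no call of a species, and these rats were again ones that ran against their set. Bacteroides sp. CBA7301 had medians of 0.394% and 1.06%, and Bacteroides sp. HF-5141 0.0591% and 0.133%.

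Measures of the whole community did not separate the sets. The Shannon index of species without Akkermansia, after thinning to 351676 reads, was 5.55 ± 0.589 in the high set and 5.58 ± 0.392 in the low set (exact permutation test, 2-sided, p = 0.910). Firmicutes took 57.1 ± 13.9% of the reads left against 48.6 ± 15.1%, Bacteroidetes 21.6 ± 14.1% against 32.9 ± 15.0%, and Actinobacteria, which hold the bifidobacteria and the Coriobacteriia, 8.72 ± 3.62% against 5.58 ± 0.632%. The log2 ratio of Firmicutes to Bacteroidetes was 0.92 higher in the high set (exact permutation test, 2-sided, p = 0.184). On Bray-Curtis distances the set accounted for an R2 of 0.144 of the variation of species shares (exact permutation test, p = 0.0692). With Akkermansia kept in, R2 was 0.226, given without a test because the distances then include the value that ranked the rats. Such a test also responds to unequal spread, and mean distances were 0.342 within the high set, 0.311 within the low set and 0.354 between them.

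The sets were also compared within each sex. Among the 7 males R2 was 0.505 (exact permutation, p = 0.0286, the smallest that 35 splits allow), and among the 9 females 0.113 (exact permutation, p = 0.405). The difference between these R2 values was not tested, and they come from unequal numbers of rats. Within males alone limma called 250 of 1332 genera (18.8%), 10 higher (0.751%) and 240 lower, and within females 0, with 65 at an unadjusted p under 0.05 and 0 by edgeR and by DESeq2. The excess of lower genera in males depended on the scale. On the share of reads left, the median log2 difference over all genera was -0.54 in males. With so few males, limma's p-values on this scale rested mainly on a variance shared over genera, not on the spread of each genus. On the scale of the deposited normalized values, where the median was -0.14, 13 genera were called (0.976%), all higher. edgeR called 42, all higher, and DESeq2 called 76, 63 of them higher. The count also rested on single rats, and leaving out one male at a time gave 1 (without male 6) to 720 (without male 1) calls on the share of reads left and 0 to 67 on the other scale. Of 4017 species, 199 were called in males (4.95%), 13 of them higher (0.324%), and on the deposited normalized scale 2, both higher (0.0498%).

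The genera called higher in males on both scales were Bifidobacterium, Limosilactobacillus, Turicibacter, Pediococcus, Hathewaya and Candidatus Arthromitus. These 6 were picked after their values were seen. Limosilactobacillus took 7.86%, 9.37% and 15.9% in the 3 high males and 2.41% to 3.80% in the 4 low males, a log2 difference of 1.72 in males against 0.52 in females. Turicibacter took 1.51%, 2.45% and 3.46% against 0.600% to 1.11% (1.53 and 0.90). Of the 21 genera in the list of lactic acid bacteria, which does not hold every genus of that kind, 3 were called higher in males on each scale, beside 0.751% of all genera on the share of reads left and 0.976% on the other. Of the 15 Bacteroidales 11 were called lower in males on the share of reads left, beside 18% of all genera, and 0 on the other scale. Muribaculum took 0.878%, 2.45% and 4.01% in high males and 2.31% to 19.5% in low males, with male 4 the lowest of the low set.

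Bifidobacterium carried the clearest difference between the sexes. These bacteria ferment milk and plant sugars to acetate and lactate. In males the genus took 3.73%, 8.28% and 13.7% of the reads left in the high set and 0.311%, 0.316%, 0.676% and 1.35% in the low set, without overlap. Sets of males without overlap were found for 26 genera in this direction (1.95%) and for 290 in the other (21.8%). In females it took 0.854%, 2.04%, 2.29%, 2.43% and 4.07% in the high set and 1.01%, 2.01%, 2.25% and 2.29% in the low set, and the sets overlapped. The log2 difference was 3.77 in males (limma, adjusted p = 1.38e-10) and 0.21 in females. With so few males, that p rested mainly on a variance shared over genera. It does not measure the spread of this genus among these rats. On the deposited normalized scale the male difference was 4.30 with an adjusted p of 0.0280 (limma), which became 0.149 without male 5, 0.178 without male 6 and 0.0581 without male 7. The difference between the sexes, tested as an interaction over all genera, was 3.56 ± 0.69 on the log2 scale (limma, adjusted p = 0.00541), and it was called for 3 of 1332 genera (0.225%). On the deposited normalized scale it was 4.30 with an adjusted p of 0.0711 (limma) and by edgeR 4.47 with 0.100, whereas DESeq2 gave 4.50 with 6.10e-05. Without male 6, the rat with the most bifidobacteria, it was 3.13 (limma, adjusted p = 0.210).

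Of 4 tested genera of the family Bifidobacteriaceae, Bifidobacterium alone was higher and 3 were lower over all 16 rats (median -0.03). Of its species, 2 were the most abundant in high males and are given here, picked after their values were seen. Bifidobacterium pseudolongum, a common species of animal guts, took 2.43%, 4.58% and 7.74% of the species reads left in high males and 0.0163%, 0.0222%, 0.189% and 0.652% in low males. Bifidobacterium animalis, used as a probiotic in dairy products, took 1.33%, 4.08% and 6.59% against 0.0189%, 0.0335%, 0.300% and 0.540%. Both were thus without overlap in males, as were 122 species in that direction (3.04%). In females B. animalis ran from 0.0583% to 0.746% in the high set and from 0.0545% to 1.27% in the low set. Of 19 tested Bifidobacterium species only 3 were higher in high males, these 2 and B. choerinum. The median over the 19 was -0.40, near the -0.47 over all 4017 tested species in males on this scale. In Bifidobacterium longum, a species of the human infant gut, the 3 high males had 0.0163% to 0.0347% and the 4 low males 0.0307% to 0.0481%.

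**Figure D3:**
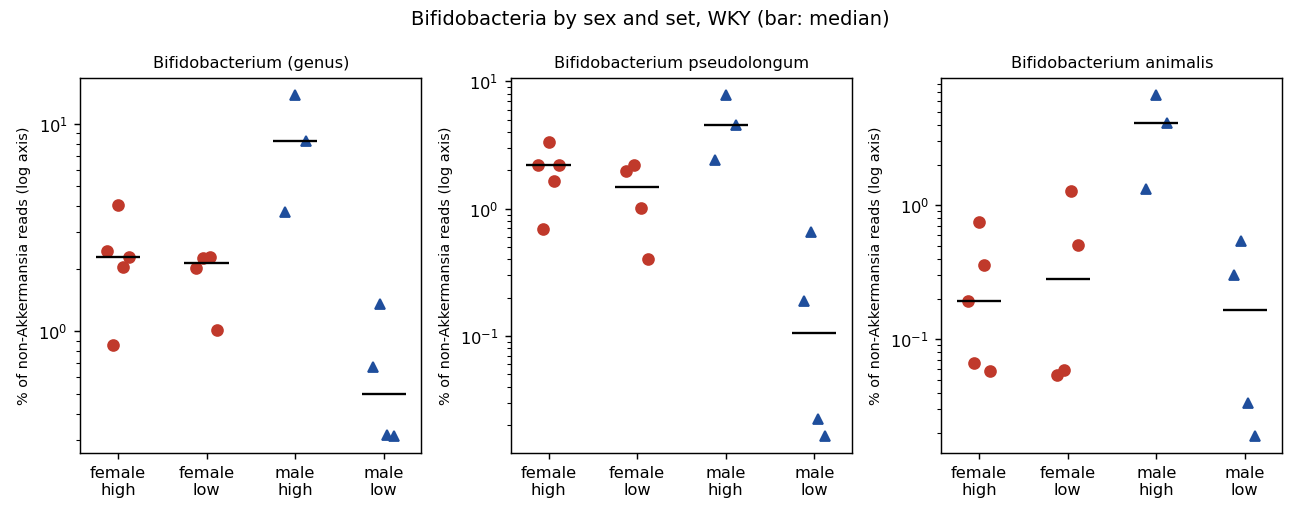
Percent of non-Akkermansia reads (log axis) of Bifidobacterium and its 2 most abundant species in WKY rats, by sex and set, with the median as a bar. High males stand at 3.73% to 13.7% for the genus and low males at 0.311% to 1.35%, while the females of both sets overlap.

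The SHR rats, which took no part in the ranking of the WKY rats, were split in the same way into 8 with the highest and 8 with the lowest Akkermansia share, each with 5 females and 3 males. Akkermansia was at 0.451% to 7.88% in the SHR high set and 0.0580% to 0.153% in the low set. These libraries differed in depth, with a median of 334221 assigned reads in the high and 571852 in the low set, and its part in the result was not tested. limma called 0 of 1332 genera (0%) and 0 of 4017 species (0%), with 177 and 521 at an unadjusted p under 0.05. The direction of genera was shared with WKY more often than not. Of the 114 WKY genera at an unadjusted p under 0.05, 99 (86.8%) had the same sign in SHR, beside 978 of all 1332 (73.4%). Within WKY, the log2 differences of females and males had the same sign in 452 of 1332 genera (33.9%). With each sex centred on its median, 0.20 in females and -0.54 in males, the share was 56.5%. Centred in the same way, WKY and SHR shared the sign in 70.1% of all genera and 85.1% of the 114. Genera are not independent of each other, so these shares are descriptions. The difference between the strains, an interaction term in limma, was called for 0 genera (40 at an unadjusted p under 0.05, lowest adjusted p = 0.693) and 0 species (113, lowest adjusted p = 0.182).

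Bifidobacterium, Phocaeicola, Turicibacter and Adlercreutzia kept their direction in SHR. The log2 differences were 1.14 ± 0.24 for Bifidobacterium (limma, adjusted p = 0.0530), -1.15 ± 0.45 for Phocaeicola, 0.84 ± 0.35 for Turicibacter and 0.71 ± 0.25 for Adlercreutzia. Limosilactobacillus (1.05) and Romboutsia (0.95) were as far apart as in WKY, and Lactobacillus stood at 1.14 in SHR against 0.07 in WKY. Eggerthella (0.10), Gordonibacter (0.07) and Brucella (0.05) had differences near 0 in SHR.

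Bifidobacterium was also compared within SHR males. The 3 high males had 4.34%, 4.75% and 5.27% of the reads left and the 3 low males 1.22%, 1.46% and 1.93%, without overlap. So few rats often separate, and 11.2% of all genera were without overlap in this direction and 9.38% in the other. The log2 difference was 1.66 ± 0.38 (limma within SHR males, adjusted p = 0.00282, 39 genera called, 2.93%). Here too limma shares variance over genera, so the p does not measure the spread of these few rats alone. The difference was 1.56 on the deposited normalized scale (limma, adjusted p = 0.0463) and 1.61 by edgeR (adjusted p = 0.0548). Leaving out one SHR male at a time gave an adjusted p of 0.00489 to 0.116 (limma). In SHR females the high set had 1.38% to 3.51% and the low set 0.788% to 2.30%, a log2 difference of 0.82 (limma, adjusted p = 0.751). The difference between the sexes of SHR was 0.84 ± 0.47 and did not pass (limma interaction, adjusted p = 0.683).

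**Figure D4:**
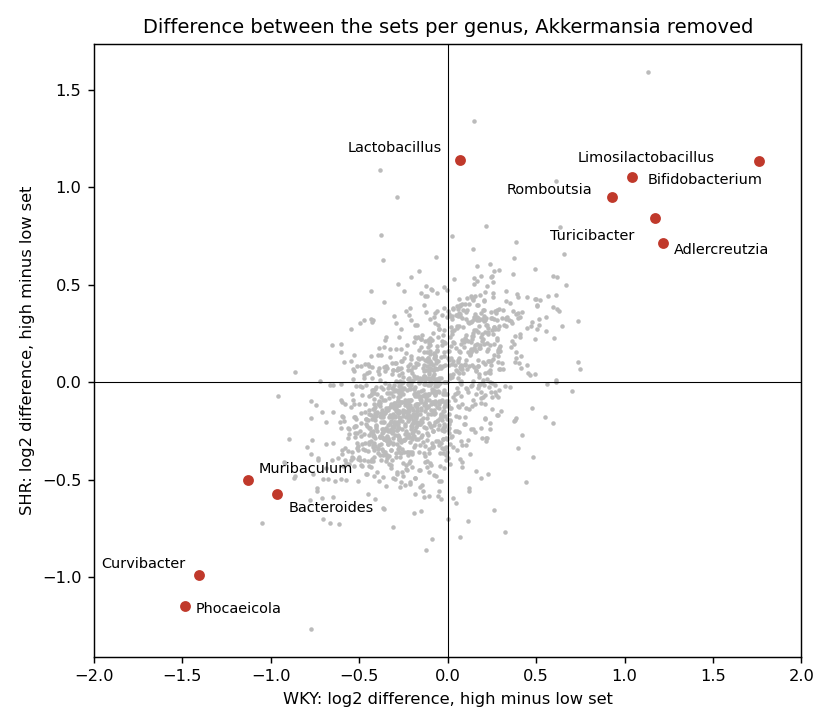
Difference between the high and low set, as log2 RPM without Akkermansia, for each of 1332 genera in WKY (horizontal) and in SHR (vertical), whose rats are different animals. Named genera are in red. Most genera cluster near 0, Bifidobacterium stands at 1.76 and 1.14 and Phocaeicola at -1.49 and -1.15.

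The functional tables, in which reads are assigned to subsystems such as pathways and complexes, do not name the bacterium a read came from. Only the total could be freed of Akkermansia, by scaling each library to the non-Akkermansia share of its reads, while the genes of Akkermansia itself remained counted. Higher functions are therefore given without a test, since the ranking enters them. That scaling assumes that Akkermansia reads received a function as often as others. Function reads were 53.4 ± 6.0% of assigned reads in the high set and 57.3 ± 2.95% in the low set, with 46.2% in female 3 and 44.9% in male 6. The median log2 difference over the 664 functions was 0.18 on this scale and 0.03 with Akkermansia kept in the total.

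Of 664 functions 2 fell in the high set (0.301%, limma adjusted p under the threshold). The adjustment ran over all 664 functions, and 59 higher ones were also under the threshold. The genes of Akkermansia can enter those, and their low p-values reduce the adjusted p of lower functions too. An adjustment over lower functions alone was not made, so the 2 calls cannot be separated from those rises. L-rhamnose utilization, the use of a sugar of plant pectin and bacterial cell walls, had 1012 to 3503 RPM in the high set (median 1320) and 1322 to 3528 in the low set (median 2288). It fell by 0.78 on the log2 scale (SE 0.21, limma adjusted p = 0.0335). Female 4, at 3503, was far above the other 7 high rats, which had 1012 to 1421. Recycling of Peptidoglycan Amino Sugars, the reuse of cell wall sugars, had medians of 41.4 and 85.1 and fell by 0.82 (SE 0.24, limma adjusted p = 0.0475), with 8 of 8 high rats below the low median. Its mean level lay under the size set for named functions, and it is named because it was called. Both calls were fragile, since they held in 12 and 9 of 31 alternative settings. With Akkermansia kept in the total, rhamnose utilization stood at -0.93 with an adjusted p of 0.0605 (limma), on the deposited normalized scale at -0.97 with 0.0729 and by edgeR at -0.93 with 0.0844.

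The 4 lower functions named next did not pass, and their adjusted p has the same limit. Xylose utilization had medians of 6183 and 9071 RPM (log2 difference -0.48 ± 0.17, limma adjusted p = 0.0641). D-Galacturonate and D-Glucuronate Utilization, for the acid sugars of pectin and host glycans, had 5114 and 6814 (-0.43 ± 0.16, limma adjusted p = 0.0660). Lactate utilization had 305 and 429 (-0.47, limma adjusted p = 0.0635), and the unknown sugar cluster yphABCDEFG 204 and 370 (-0.65, limma adjusted p = 0.0555). In each of these 6 or 7 of 8 high rats lay below the low median. In SHR rhamnose utilization stood at -0.67 ± 0.25 and xylose utilization at -0.36 ± 0.17.

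Among higher functions with a mean of at least 100 RPM, sulfatases differed most. Sulfatases and sulfatase modifying factor 1, enzymes that cut sulfate off mucin and other glycans, had 89.0 to 1160 RPM in the high set (median 406) and 42.9 to 187 in the low set (median 63.2), a log2 difference of 2.20. The order within the high set largely followed that of Akkermansia, from 1160 in female 3 (22.7% Akkermansia) to 89.0 in female 1 (1.71%). In the low set it did not, since male 2, with 0.151% Akkermansia, had the highest value, 187. Inorganic Sulfur Assimilation, the uptake of sulfate into amino acids, had 694 and 338 (log2 difference 1.14). Sets without overlap were found for 3 higher functions (0.452%) and 0 lower ones (0%). The 3 were a gene cluster listed without a descriptive name, at 24.3 to 542 against 0 to 14.8 RPM, Lipoprotein Biosynthesis, at 838 to 1106 against 686 to 788, and Thioredoxin-disulfide reductase, a redox enzyme, at 873 to 1129 against 575 to 839. The gene cluster passed the filter, 20 RPM in at least 8 rats, only through the 8 high rats. Its lack of overlap was therefore fixed by the filter and is no result. For Lipoprotein Biosynthesis and Thioredoxin-disulfide reductase, the scale divides by a total reduced by the Akkermansia share while Akkermansia reads stay counted. The ranking value thus enters their values too, and their lack of overlap is only a description. Overlap with Akkermansia kept in the total was not counted.

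**Figure D5:**
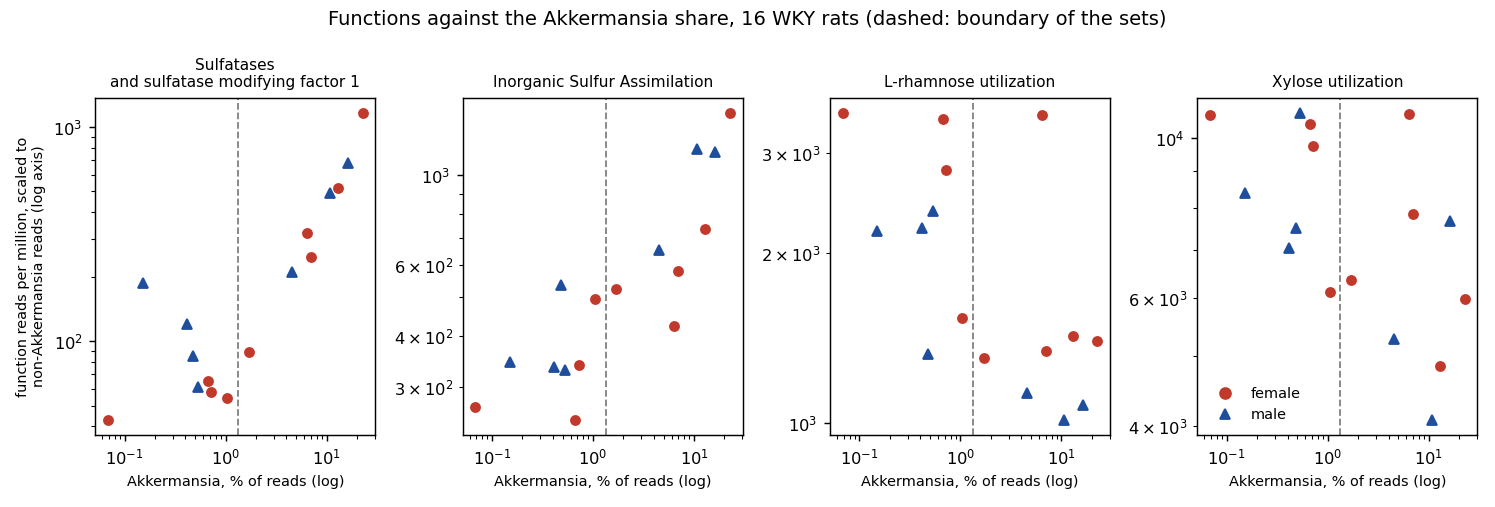
RPM of 4 functions, scaled to non-Akkermansia reads (log axis), against the Akkermansia share (log axis) in the 16 WKY rats, circles for females and triangles for males, with the boundary of the sets dashed. Sulfatases climb to 1160 at the highest Akkermansia share, and L-rhamnose utilization lies between 1012 and 1421 in 7 of the 8 high rats.

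The other largest differences on the higher side at a mean of at least 100 RPM were given as medians of the high and the low set. They were Streptococcus pneumoniae Vancomycin Tolerance Locus (193 and 89.9), ATP-dependent efflux pump transporter Ybh (180 and 69.3), Multidrug Resistance, 2-protein version (194 and 77.7) and Universal stress protein family (234 and 78.3). Cyanophycin Metabolism, which covers a nitrogen reserve (244 and 125), Lipoate transport (189 and 97.4), Polyhydroxybutyrate metabolism, a carbon reserve (233 and 118), and NiFe hydrogenase maturation (689 and 382) also belonged to them. YgfZ-Fe-S (330 and 207) and a DNA integrity scanning protein that co-occurs with RadA (126 and 64.5) closed the list. The log2 differences of these 10 ran from 0.80 to 1.34.

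Of all 664 tested functions 507 were higher and 157 lower, on a scale that still counts the genes of Akkermansia. That scale divides by a total reduced by the Akkermansia share, which lifts functions more in rats with more Akkermansia. With Akkermansia kept in the total the median over functions was 0.03, so the counts of higher members below are descriptions only. By function list, 36 of 38 tested ribosome and tRNA functions and 9 of 9 sporulation functions were higher, with medians of 0.18 and 0.42 beside 0.18 for all functions. Ribosome LSU bacterial had 9638 ± 1361 and 8182 ± 373 RPM, and Sporulation gene orphans 4681 ± 1029 and 3424 ± 606. Of 9 peptidoglycan and cell wall functions 7 were higher (median 0.27), of 5 motility and chemotaxis functions 5 (0.33), of 9 oxidative stress functions 7 (0.28), of 7 butyrate and lactate functions 5 (0.21) and of 8 lipopolysaccharide and outer membrane functions 5 (0.20). Of 19 toxin and antibiotic resistance functions 12 were higher (median 0.14), of 11 menaquinone and quinone functions 8 (0.17), of 11 phage and CRISPR functions 7 (0.04), of 8 iron and heme functions 5 (0.11) and of 2 secretion systems 2 (0.16). The medians of these lists lay below the 0.18 of all functions. Lists with more lower than higher members were B12 and cobalamin (3 of 3 lower, median -0.04), plant polysaccharides (4 of 6 lower, -0.19), propionate and succinate (2 of 2 lower, -0.39) and sulfatases and sulfur (3 of 5 lower, -0.08). Of the 8 mucin and host glycan sugar functions 5 were higher and 3 lower (median 0.12). Sialic Acid Metabolism, on the terminal sugar of mucin chains, had 4790 ± 712 and 4540 ± 777 RPM.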

How the data were processed

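The authors deposited shares of taxa in percent of reads and a normalized signal, the read count of each taxon or functional subsystem divided by a size factor of the library. Read checks and trimming used cutadapt 2.6, Trimmomatic 0.36 and FastQC 0.11.5, with DESeq2 also listed, per the submitters' processing notes; the classifier is not given in the sources used here. Each library's values were multiples of what 1 read is worth, so that read counts were recovered, whole within 0.01 read for 100% of values. No molecular identifiers are named, so p-values and counts do not measure independent molecules.

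Taxa were expressed in RPM of the reads left without Akkermansia and kept at 20 RPM in at least 8 of the 16 rats, without Verrucomicrobia. limma 3.58.1 (R 4.3.3; trend, robust) was fitted on log2(value + 10), which understates the change of low taxa, with sex as covariate. Count tests on the recovered reads (edgeR 4.0.16, DESeq2 1.42.0), other scales, pseudocounts, groupings and leaving out each rat were alternatives; the scripts were tested on simulated data. The permutation tests went through every split of the rats, in Python 3.11.15 with numpy 2.4.6. Named were the 20 most abundant genera, up to 12 called features in each direction at a mean of at least 100 RPM (the 5 with the lowest p where fewer than 5 were called), and the 12 largest differences of functions on the higher side, given without a test. The sets, lists and tests were chosen with earlier results of these data known, and the fits within a sex of SHR and the sex interaction's alternatives after these values were seen. The authors' own model tables were not used.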

Additional observations from a re-analysis of the deposited data

Results flagged for a closer look

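The difference between the sets differed between the sexes for 3 genera by limma's interaction term, given as males minus females on the log2 scale. It was 3.56 for Bifidobacterium, -2.03 for Frateuria (adjusted p = 0.0428) and -2.12 for Micavibrio (adjusted p = 0.0187). Frateuria and Micavibrio, both named after their values were seen, stood at traces, from 0.00122% to 0.00910% and from 0.00205% to 0.0142% of the reads left.

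In 116 sets of 8 rats checked for a value far from the others, 7 had one, where chance gives about 1 in 20. WKY female 4 was the highest of the high set in L-rhamnose utilization (3503 RPM) and in Phocaeicola vulgatus (1.23%). WKY male 4 was the lowest of the low set in P. vulgatus (0.0654%) and in Bacteroides sp. CBA7301 (0.106%). WKY male 3 was the highest of the low set in NiFe hydrogenase maturation (764 RPM), WKY female 9 the lowest of the low set in Flavonifractor (0.457%), and WKY male 6 the lowest of the high set in Jiangella (0.00244%).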

How the results depend on the processing

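For genera, the count of 0 became 1 with DESeq2, 250 in males alone, 5 without ranks 8 and 9 and 0 to 7 with each rat left out. For species it became 38 with DESeq2, which gave 2889 of 4017 species no adjusted p, 199 in males alone and 0 to 3 with each rat left out. Lower functions numbered 2, with the adjustment over lower and higher functions together. They were 0 with Akkermansia kept, on the centred log-ratio or size-factor scale, with edgeR, in females alone, without a sex term, split within each sex and without ranks 1 and 2, 1 without a filter, 5 in males alone, 10 with Akkermansia as a continuous term, 16 with DESeq2, 18 without ranks 8 and 9, and 0 to 25 with each rat left out. The 3 genera whose difference differed between the sexes became 0 on the size-factor and centred log-ratio scales and with edgeR, 38 with Akkermansia kept, and 0 to 502 with each rat left out, 0 without male 6 and 502 without male 1. Genera called in males alone numbered 250, and 13 on the size-factor scale, 21 on the centred log-ratio, 42 with edgeR, 76 with DESeq2 and 1 to 720 with each male left out. The Shannon difference of -0.03 was 0.38 in females alone, -0.59 in males alone, -0.38 with Akkermansia kept and -0.13 to 0.11 with each rat left out. The depth difference of -0.122 was 0.0829 in males alone. R2 was 0.505 in males alone, past the threshold, and 0.226 with Akkermansia kept, where the value that ranked the rats enters the distances and a test says nothing. The cause of these changes was not tested. The male counts, the alternatives of the difference between the sexes and the within-sex depth were chosen after seeing the data. The labels do not pair rats of the 2 sets, so no paired analysis was made. With 8 rats a set, and 3 or 4 males, the number of animals limits the precision, and the effect of depth on the calls was not tested.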
